A study of Mus musculus with 24 samples.

Results

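The genes described here belong to the sorting machinery of endosomes and were chosen by name: every gene of the array whose symbol opens with Vps or Snx and a number, or with Chmp. Genes of the HOPS and CORVET tethers (Vps39, Vps41, Vps11, Vps16, Vps18, Vps33a and Vps8) were left out, 7 in all. The rule found 67 genes among the 19505 named on the array, and 66 of them had a mean log2 level of 5 or more over the 24 arrays, with Snx22 the exception at 4.77. All 67 were tested. The arrays were hybridised with RNA of whole tibialis anterior muscle, a fast muscle of the lower hindlimb, from mice on a C57BL/6J background. The reporting summary of the paper gives an age of 4 months, and its body composition data give 4 to 5 months. No treatment of the array mice is stated. Vps39+/- mice carried 1 germ-line allele of Vps39 whose exon 2 was disrupted by a cassette, so that every cell type was heterozygous, and they were compared with WT littermates. Each of the groups WT female, Vps39+/- female, WT male and Vps39+/- male held 6 mice, and the comparison asks how muscle with a single intact Vps39 allele differs from WT muscle.

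Endosomes receive membrane proteins from the cell surface and the Golgi and either send them to lysosomes or return them. The ESCRT complexes take up ubiquitin-marked proteins and bud them into the endosome, with ESCRT-III filaments cutting the membrane and the Vps4 ATPases taking the filaments apart. Retromer, retriever and the sorting nexins, which bind phosphoinositides through a PX domain, retrieve other cargo in tubules toward the Golgi or the surface. Vps39 acts after these steps, in the HOPS complex that tethers late endosomes and autophagosomes to lysosomes.

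By role the 67 genes were 5 of ESCRT-I (Vps28 and Vps37a to Vps37d), 2 of ESCRT-II (Vps25 and Vps36), 10 of ESCRT-III (Chmp1a, Chmp1b, Chmp2a, Chmp2b, Chmp3, Chmp4b, Chmp4c, Chmp5, Chmp6 and Chmp7) and the ATPases Vps4a and Vps4b. Retromer was represented by its 4 core genes (Vps26a, Vps26b, Vps29 and Vps35) and retriever by Vps26c and Vps35l. The sorting nexins were 12 of the SNX-BAR type, which bend membranes (Snx1, Snx2, Snx4 to Snx9, Snx18, Snx30, Snx32 and Snx33), and 3 SNX-FERM cargo adaptors (Snx17, Snx27 and Snx31). A further 4 belonged to the class named after PXA and RGS domains (Snx13, Snx14, Snx19 and Snx25), and 11 were others (Snx3, Snx10, Snx11, Snx12, Snx15, Snx16, Snx20, Snx21, Snx22, Snx24 and Snx29). The name rule also took in 4 genes of the GARP and EARP tethers (Vps50, Vps52, Vps53 and Vps54), the 4 Vps13 lipid transfer genes (Vps13a to Vps13d) and 4 further Vps genes (Vps9d1, Vps33b, Vps45 and Vps72). Vps72 is a subunit of chromatin remodelling complexes that deposit the histone variant H2A.Z, so it shares the name and not the endosomal role.

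Promoter windows are shown for 4 of the 5 genes that later differed between the sexes and for the retromer gene Vps26a, which alone among the members with a window held the longer E-box of the CLEAR type, a sequence recognised by the lysosomal regulator TFEB. The windows run from 250 bases before to 50 after the annotated start and come from RefSeq on GRCm38.p6, all on the minus strand, at chrX:101222514-101222813 for Snx12, chr2:144270523-144270822 for Snx5, chr9:88438880-88439179 for Snx14, chr19:16780884-16781183 for Vps13a and chr10:62486549-62486848 for Vps26a. Capitals mark 3 motifs on either strand, the E-box CACGTG, the GC box GGGCGG and the ETS site CCGGAAGT.
Snx12: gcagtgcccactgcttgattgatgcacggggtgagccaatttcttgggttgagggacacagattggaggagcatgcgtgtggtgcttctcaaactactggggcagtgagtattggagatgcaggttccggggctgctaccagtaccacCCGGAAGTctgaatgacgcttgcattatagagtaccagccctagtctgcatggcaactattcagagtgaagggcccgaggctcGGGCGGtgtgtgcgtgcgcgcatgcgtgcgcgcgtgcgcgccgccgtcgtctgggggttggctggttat
Snx5: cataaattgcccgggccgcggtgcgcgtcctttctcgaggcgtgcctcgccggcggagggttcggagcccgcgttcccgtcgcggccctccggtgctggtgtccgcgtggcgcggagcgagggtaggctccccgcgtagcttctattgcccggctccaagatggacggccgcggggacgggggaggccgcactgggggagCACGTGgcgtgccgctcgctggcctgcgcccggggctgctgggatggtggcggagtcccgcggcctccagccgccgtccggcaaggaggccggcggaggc
Snx14: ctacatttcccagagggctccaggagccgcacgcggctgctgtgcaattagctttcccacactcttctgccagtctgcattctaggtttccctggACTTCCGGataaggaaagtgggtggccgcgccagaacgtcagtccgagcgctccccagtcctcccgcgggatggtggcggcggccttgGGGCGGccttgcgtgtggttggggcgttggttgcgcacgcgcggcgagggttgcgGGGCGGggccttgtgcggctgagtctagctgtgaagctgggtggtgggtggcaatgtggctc
Vps13a: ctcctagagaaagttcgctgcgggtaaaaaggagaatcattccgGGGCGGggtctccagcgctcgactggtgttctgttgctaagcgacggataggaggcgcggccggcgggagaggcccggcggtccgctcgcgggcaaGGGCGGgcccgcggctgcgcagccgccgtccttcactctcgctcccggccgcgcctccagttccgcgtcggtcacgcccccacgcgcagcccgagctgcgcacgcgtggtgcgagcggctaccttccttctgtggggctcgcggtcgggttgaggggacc
Vps26a: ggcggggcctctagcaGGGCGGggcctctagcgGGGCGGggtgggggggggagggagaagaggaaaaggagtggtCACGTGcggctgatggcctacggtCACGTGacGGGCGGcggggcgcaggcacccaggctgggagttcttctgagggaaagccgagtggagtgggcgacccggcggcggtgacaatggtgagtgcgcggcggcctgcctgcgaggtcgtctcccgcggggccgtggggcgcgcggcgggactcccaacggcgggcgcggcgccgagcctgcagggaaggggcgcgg
Snx12 held an ETS site and 1 GC box, Snx14 an ETS site and 2 GC boxes, Snx5 a single E-box, and Vps13a 2 GC boxes. In the Vps26a window shown, 3 GC boxes and a pair of E-boxes were found, the second E-box inside TCACGTGA. Another Vps26a window, which is not shown, also held TCACGTGA.

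Windows were given for 44 of the 67 genes, 55 windows in all, and they were rich in G and C, with a median of 63% against 52.7% over all 32851 windows of the table. A GC box was found in 63.6% of the members' windows and 35.7% of all windows. The ETS site was found in 14.5% against 3.89%, in Snx12, Snx14, Snx17, Vps26c, Vps52 and Vps53. The E-box was found in 10.9% against 7.15%, and TCACGTGA, which contains it, in 3.64% against 0.974%, both member windows belonging to Vps26a. The nuclear receptor core site AGGTCA was found in 5.45% against 16.3%, and the steroid receptor core site TGTTCT in 12.7% against 19%. These shares describe letters in the windows, on either strand, and were not tested.

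The Vps39 probe set had a mean of 7.31 ± 0.45 in female and 7.69 ± 0.40 in male WT mice, and of 7.84 ± 0.60 in female and 7.84 ± 0.32 in male Vps39+/- mice (SD, n = 6 each), and the genotype difference did not pass the test (limma, adjusted p = 0.709). The sources used here do not place its probes relative to the disrupted exon, and the level therefore checks no genotype label. By qPCR with an assay spanning the deleted part of that exon, the paper reported lower Vps39 mRNA in tibialis anterior of Vps39+/- mice. Skeletal muscle markers were at 13.13 to 13.27 in every array (mean of 10 genes). A list of 26 hepatocyte genes, 24 of them measured, was high in some arrays, with means of 8.86 to 11.15 in WT females 2 and 6 and Vps39+/- males 2 and 3, and 4.46 to 7.76 in the other 20. The former are called the 4 liver-high arrays. Whole muscle holds several cell types, and in such bulk samples fewer cells of a type cannot be told apart from less RNA per cell.

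The members varied little within groups. Their median standard deviation within groups was 0.17 on the log2 scale, against 0.22 over all genes tested and 0.19 over those with a mean of 5 or more. It was lowest for the ESCRT-III gene Chmp2a at 0.07, whose level stayed between 7.89 and 8.18 in all 24 arrays, and highest for Chmp4c at 0.32, a dimmer gene that ranged from 4.58 to 5.90. The 4 group means of a member spanned a median of 0.221, against 0.215 over all genes tested. The members' spans ran from 0.01 to 0.42, and the widest belonged to Snx12 and Snx33.

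**Figure D1:**
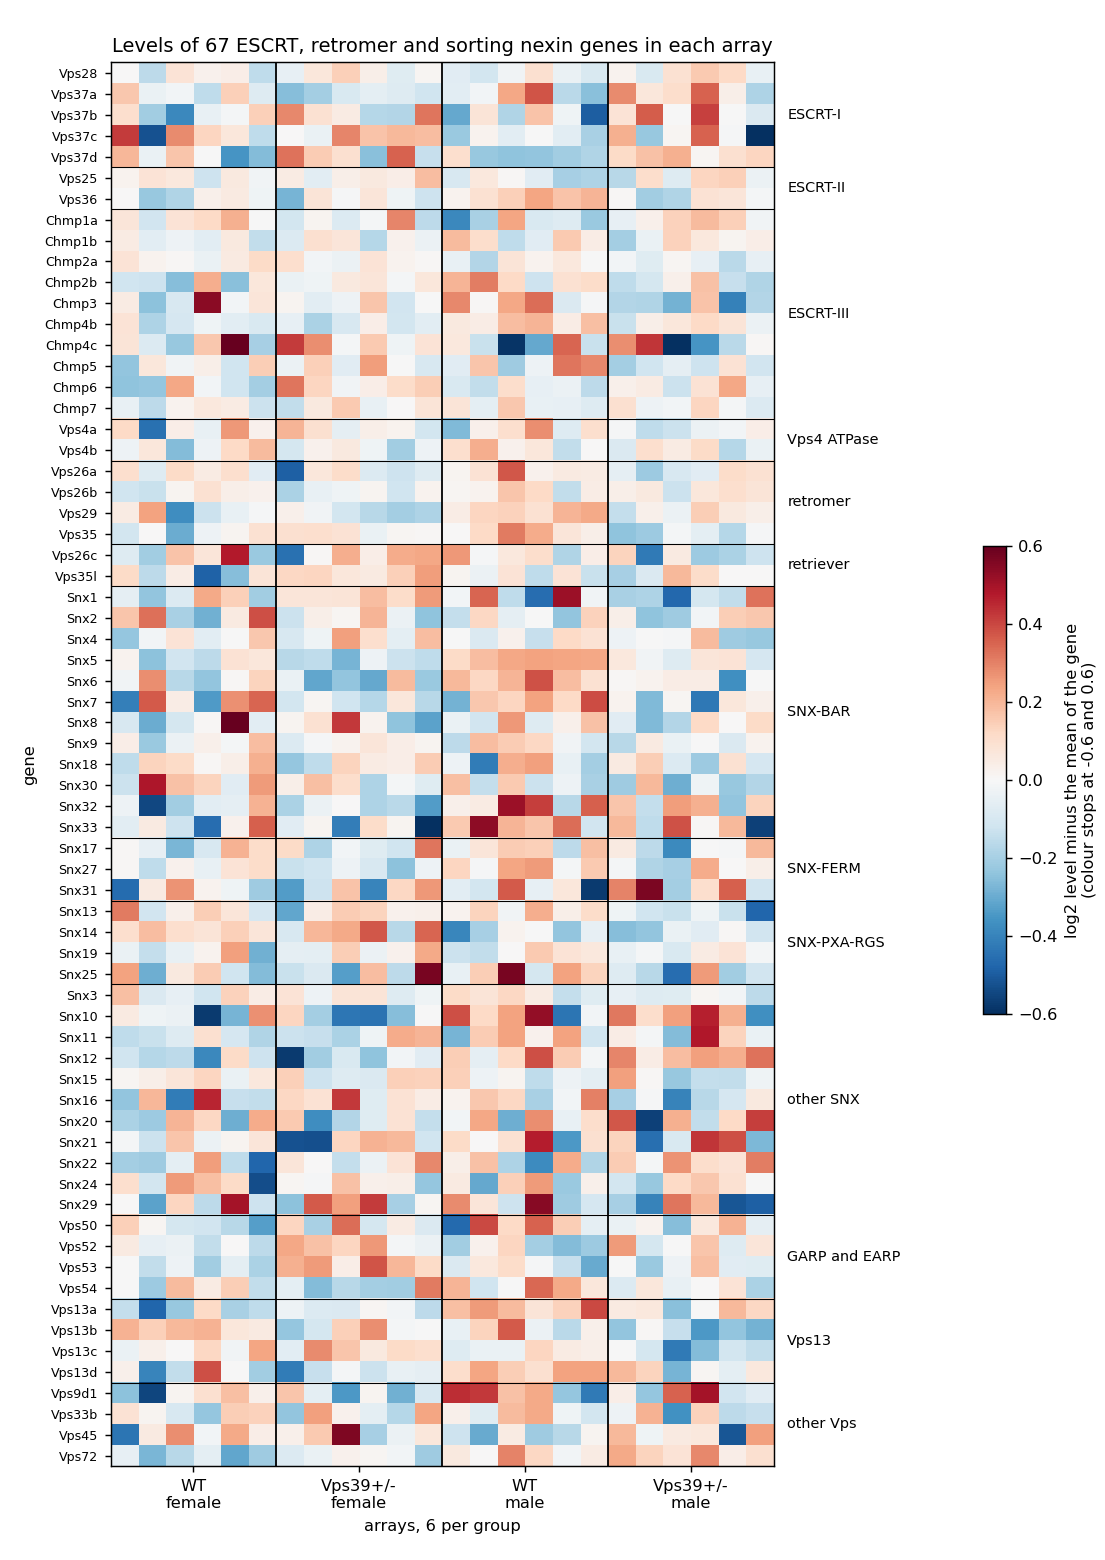
Log2 level of each of the 67 genes (rows, ordered by role) in each of the 24 arrays (columns, 6 per group), shown as the difference from the mean of that gene over all arrays, with the colour scale ending at -0.6 and 0.6. Most rows are pale, the median standard deviation within groups being 0.17, and the row of Snx12 is redder in males.

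No member passed the test for the Vps39 genotype over both sexes. The count was 0 of 67 at an adjusted p under 0.05 (limma with Benjamini-Hochberg adjustment), with a background of 0% of the 19572 probe sets tested. At an unadjusted p under 0.05 there were 13 of 67 members, 6 higher and 7 lower in Vps39+/- muscle, against 7.34% of all probe sets. On balance the members leaned lower: 44 of 67 had a lower mean in Vps39+/- muscle. So did 46.8% of all probe sets and 49.3% of those with a mean of 5 or more. The median difference was -0.03 for the members against 0.01 for all probe sets.

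Lower values were frequent in retromer, the SNX-BAR genes, the Vps13 genes and both Vps4 ATPases. All 4 retromer genes had a negative difference, from -0.14 for Vps26a to -0.02 for Vps26b, with a median of -0.08, and so did 11 of the 12 SNX-BAR genes, with a median of -0.07. The sign of retromer's 4 genes was the same after both other scalings and without the 4 liver-high arrays, whereas the SNX-BAR count fell to 8 of 12 without those arrays. The 4 Vps13 genes were also negative, from -0.19 to -0.03 (3 of 4 without those arrays), while ESCRT-I was positive in 4 of 5 and GARP and EARP in 3 of 4 (2 of 4 after either other scaling).

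Among single genes Vps52, a subunit shared by GARP and EARP, had the smallest p. Its level ran from 7.77 to 8.16 in WT mice (median 7.93) and from 7.92 to 8.29 in Vps39+/- mice (median 8.13). The ranges overlapped, yet 11 of the 12 Vps39+/- mice exceeded the mean of WT. The difference was 0.18 (95% interval 0.06 to 0.30, adjusted p = 0.508). Vps37d, 1 of the alternative ESCRT-I subunits, ran from 5.70 to 6.26 (median 5.86) in WT and from 5.80 to 6.41 (median 6.18) in Vps39+/- mice, a difference of 0.21 ± 0.07 (SE, adjusted p = 0.544). Chmp6, which links ESCRT-II to ESCRT-III, ran from 7.22 to 7.7 (median 7.36) in WT and from 7.34 to 7.79 (median 7.53) in Vps39+/- mice, a difference of 0.16 ± 0.06 (SE, adjusted p = 0.579). Both overlapped between genotypes and lay above the WT mean in 10 and 11 of 12 Vps39+/- mice.

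In the other direction stood Snx6 and Snx5, which form SNX-BAR dimers with Snx1 or Snx2, and Vps13b, a Golgi lipid transfer protein. Snx6 ran from 6.76 to 7.38 (median 7.13) in WT and from 6.63 to 7.19 (median 6.98) in Vps39+/- mice, a difference of -0.20 (95% interval -0.35 to -0.04, adjusted p = 0.583). Vps13b ran from 6.60 to 7.13 (median 6.86) in WT and from 6.42 to 7.04 (median 6.64) in Vps39+/- mice, a difference of -0.19 (-0.34 to -0.05, adjusted p = 0.560). For Snx5 the difference was -0.15 (-0.28 to -0.02, adjusted p = 0.629). The ranges overlapped in all 3, with 10 or 11 of 12 Vps39+/- mice on the lower side of the WT mean.

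Core retromer, the cargo-binding trimer of Vps35, Vps29 and either Vps26 paralog, was measured with narrow intervals. Over both sexes the difference was -0.14 for Vps26a (95% interval -0.27 to -0.01, adjusted p = 0.655), -0.02 for Vps26b (-0.12 to 0.08), -0.09 for Vps29 (-0.23 to 0.04) and -0.07 for Vps35 (-0.20 to 0.05). For the ATPases it was -0.02 for Vps4a (-0.16 to 0.12) and -0.05 for Vps4b (-0.17 to 0.06). None of these 6 intervals extended below -0.27 or above 0.12.

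**Figure D2:**
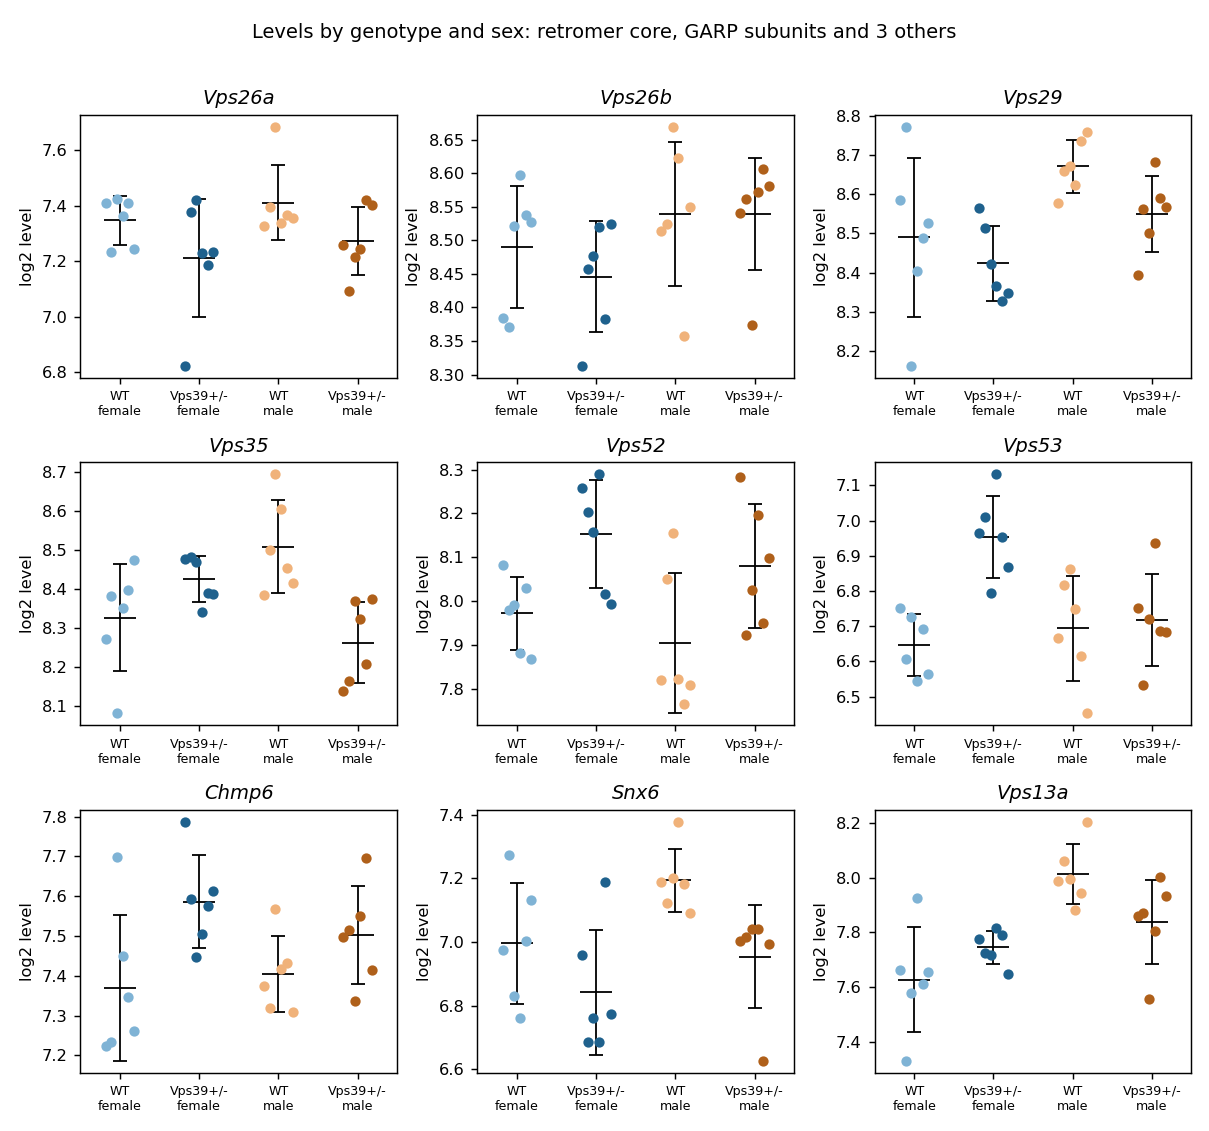
Log2 level in each mouse (points) of 9 genes by genotype and sex, with the group mean and standard deviation (bars, n = 6) and a separate vertical scale for each gene. The 6 Vps39+/- females lie above the 6 WT females for Vps53, and the 6 Vps39+/- males lie below the 6 WT males for Vps35 and Snx6, while the other ranges by genotype within a sex overlap.

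Within females 0 of 67 members passed (background 0%), and 4 had an unadjusted p under 0.05, all higher in Vps39+/- mice, against 8.32% of all probe sets. They were 2 GARP and EARP subunits, Vps53 and Vps52, with the retriever gene Vps35l and the ESCRT-III gene Chmp6. Vps53 ran from 6.54 to 6.75 in WT females (median 6.65) and from 6.80 to 7.13 in Vps39+/- females (median 6.96). It was the 1 member whose female groups did not overlap, where 0.46% of all probe sets did not. The difference was 0.31 (1.24-fold, 95% interval 0.14 to 0.47, adjusted p = 0.399). Vps35l was higher by 0.24 ± 0.09 and Chmp6 by 0.22 ± 0.08 (SE, adjusted p = 0.536 each), with all 6 Vps39+/- females above the WT mean and overlapping ranges. Snx6 (-0.15 ± 0.10), the SNX-FERM adaptor Snx27 (-0.12 ± 0.08) and Vps26a (-0.14 ± 0.09) had the smallest p among lower members, with intervals that held 0. Without the 4 liver-high arrays Snx6 stood at -0.05, and with a fixed block for the title number (a number in the sample titles whose meaning is not stated) Snx6 stood at -0.36 and Vps26a at -0.07. That block also put Vps35l at 0.14 and Chmp6 at 0.36. The median over the members was 0.01 and turned to -0.01 after cyclic loess.

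Within males 0 of 67 passed (background 0%), and 12, 3 of them higher and 9 lower in Vps39+/- mice, were under an unadjusted p of 0.05, against 7% of all probe sets. The split was 1 higher and 13 lower once every array was shifted to the same median. A total of 4 members, Vps35, Snx5, Snx6 and Snx13, did not overlap between the male genotypes, where 0.542% of all probe sets did not, and each was lower in Vps39+/- males. Vps35, the scaffold of retromer, ran from 8.38 to 8.69 in WT males (median 8.48) and from 8.14 to 8.37 in Vps39+/- males (median 8.27). Every Vps39+/- male thus lay below every WT male, by a small margin. The difference was -0.25 (1.19-fold, 95% interval -0.40 to -0.09, adjusted p = 0.573), and -0.25 again without the 4 liver-high arrays, 2 of which were Vps39+/- males.

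Snx5 ran from 9.69 to 9.81 in WT males (median 9.81) and from 9.47 to 9.65 in Vps39+/- males (median 9.59), a difference of -0.20 (95% interval -0.34 to -0.07, adjusted p = 0.605). Vps13b differed by -0.25 ± 0.09 with overlapping ranges (SE, adjusted p = 0.635). Members with higher levels in Vps39+/- males were Vps37d (0.29 ± 0.11, adjusted p = 0.637), Vps52 (0.18 ± 0.08, adjusted p = 0.695) and the ESCRT-III gene Chmp1a (0.20 ± 0.09, adjusted p = 0.696), each above the WT mean in all 6. All 4 Vps13 genes and 10 of 12 SNX-BAR genes were lower in Vps39+/- males. So were 42 of all 67 members, against 50.5% of all probe sets and 54% of those with a mean of 5 or more.

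**Figure D3:**
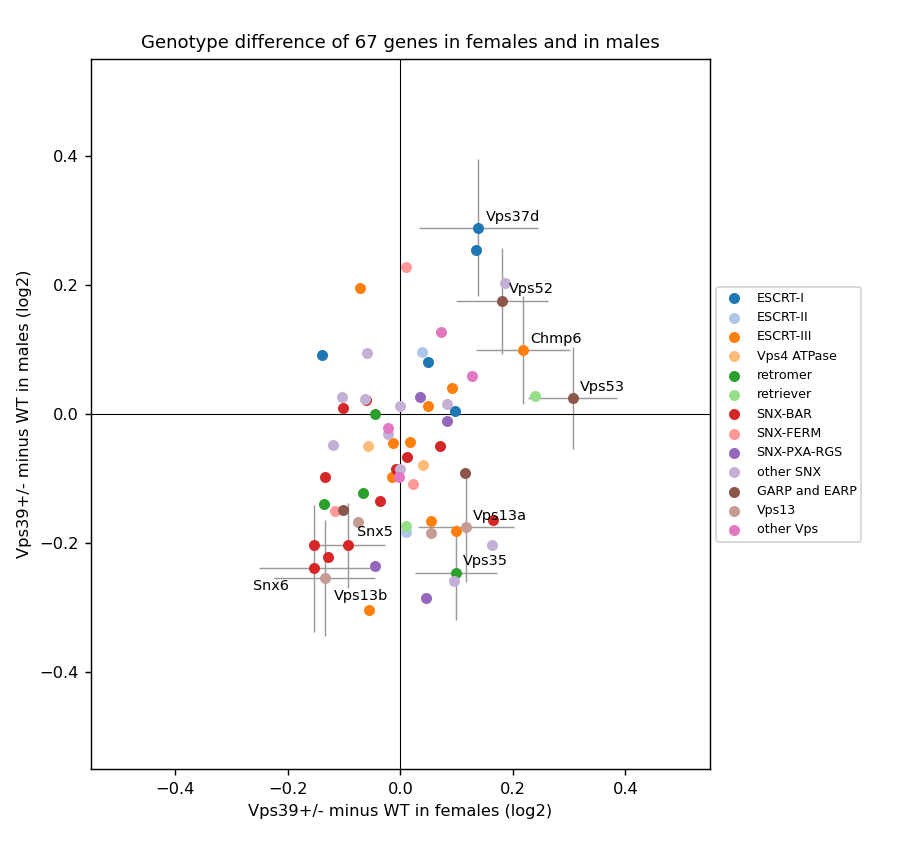
Difference between Vps39+/- and WT muscle on the log2 scale in females (horizontal) and in males (vertical) for the 67 genes, coloured by role, with standard errors for the genes named beside them. Vps35 and Vps13a lie to the right of 0 in females and below 0 in males, Vps52 is positive in both sexes, and most points lie within 0.2 of 0.

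Female and male differences came from separate mice. Of the 67 members, 17 were higher and 23 lower in Vps39+/- mice of both sexes, 59.7% with the same sign, against 50.3% of all probe sets. The interaction, the female difference minus the male difference, passed for 0 of 67 members (background 0%), and 6 had an unadjusted p under 0.05, against 7.79% of all probe sets. All 6 were positive, whereas after cyclic loess 3 were positive and 1 negative, and the count was 3 on leaving out WT female 3, WT female 5 or Vps39+/- male 3. Without the 4 liver-high arrays the unadjusted counts were 2 in females, 7 in males and 3 for the interaction. The interaction of Vps35 was 0.34 (95% interval 0.13 to 0.56, adjusted p = 0.609). That of Vps13a, the chorein gene that carries lipids between membranes, was 0.29 (0.04 to 0.54, and 0.16 without the 4 liver-high arrays or 0.53 with the title-number block) and that of Vps53 was 0.28 (0.05 to 0.51), both with an adjusted p of 0.632. The smallest p among negative values belonged to Chmp1a (-0.27 ± 0.13), the ESCRT-I gene Vps37a (-0.23 ± 0.14, and -0.48 with that block) and Snx12 (-0.15 ± 0.13), whose intervals held 0.

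Sex gave the only members that passed over all 24 mice. A total of 5 of 67 (7.46%) were called, 4 higher in males (Snx12, Vps13a, Vps72 and Snx5) and 1 lower (Snx14). The background was 3.38% of all probe sets and 4.95% of those with a mean of 5 or more. At an unadjusted p under 0.05 there were 13 of 67, 10 higher and 3 lower in males, against 15.6% of all probe sets. The median difference over the members was 0.00, and the called genes came from 5 different role groups.

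Snx12, a short sorting nexin made up largely of its PX domain and the only member on the X chromosome, rose most in males. It ran from 7.06 to 7.75 in females (median 7.5) and from 7.58 to 8.02 in males (median 7.81). The ranges overlapped, but all 12 males lay above the female mean. The difference was 0.34 (1.27-fold, 95% interval 0.20 to 0.48, adjusted p = 0.00373).

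Vps72 and Snx5 were higher in 12 of 12 males than the female mean. Vps72 ran from 7.69 to 8.03 in females (median 7.93) and from 7.99 to 8.30 in males (median 8.09), a difference of 0.23 (1.17-fold, 0.13 to 0.33, adjusted p = 0.00753). Snx5 ran from 9.29 to 9.66 in females (median 9.43) and from 9.47 to 9.81 in males (median 9.67), a difference of 0.21 (1.16-fold, 0.11 to 0.31, adjusted p = 0.0108). Vps13a ran from 7.33 to 7.93 in females (median 7.69) and from 7.56 to 8.20 in males (median 7.94), a difference of 0.24 (1.18-fold, 0.11 to 0.36, adjusted p = 0.0278). It lay above the female mean in 11 of 12 males.

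Snx14, a PXA and RGS sorting nexin of the endoplasmic reticulum that acts at lipid droplets, fell in males. It ran from 6.16 to 6.69 in females (median 6.44) and from 5.93 to 6.34 in males (median 6.23). All 12 males lay below the female mean, and only 2 Vps39+/- females reached the male range. The difference was -0.26 (1.2-fold, 95% interval -0.39 to -0.13, adjusted p = 0.0237). Without the 4 liver-high arrays Snx14 (-0.25, adjusted p = 0.10) and Vps72 (0.22, adjusted p = 0.0524) were no longer called, while Snx12, Snx5 and Vps13a were. With the title-number block Snx5 was no longer called (0.18, adjusted p = 0.0808). With a covariate for the liver-list mean Vps13a was no longer called (0.20, adjusted p = 0.0617), nor without WT male 6 or Vps39+/- male 5 (0.22 each, adjusted p = 0.050 and 0.0511). The liver-list mean of females and males was 7.30 ± 2.76 and 5.05 ± 0.94 among WT mice, and 6.08 ± 1.13 and 6.28 ± 2.31 among Vps39+/- mice (SD, n = 6 each), and its part in the sex differences was not tested beyond these values.

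**Figure D4:**
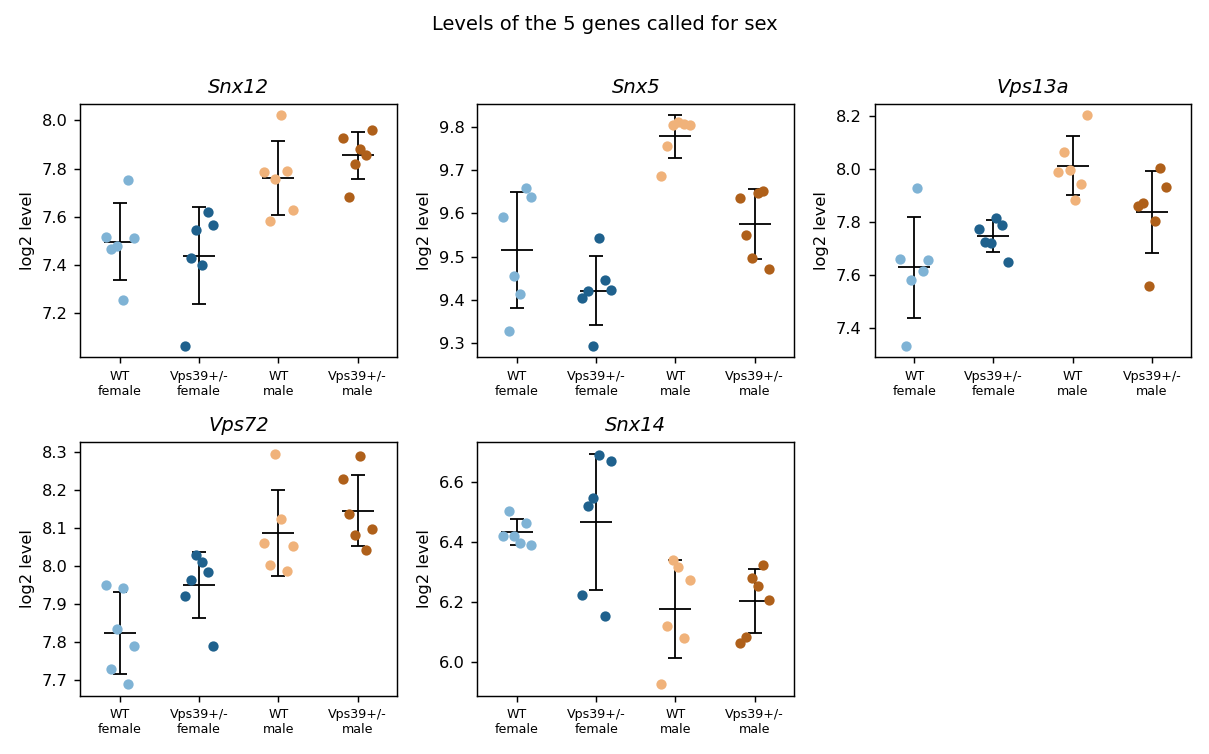
Log2 level in each mouse (points) of the 5 genes called for sex, by genotype and sex, with the group mean and standard deviation (bars, n = 6) and a separate vertical scale for each gene. Males lie higher for Snx12, Snx5, Vps13a and Vps72 and lower for Snx14, and the Vps13a difference is 0.38 in WT but 0.09 in Vps39+/- mice.

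Other members with an unadjusted p under 0.05 for sex did not pass the adjustment. Within the Vps13 family Vps13c (-0.17 ± 0.05, adjusted p = 0.0934) and Vps13b (-0.16 ± 0.06, adjusted p = 0.207) were lower in males, against the direction of Vps13a. All 4 retromer genes had a higher mean in males, from 0.01 for Vps35 to 0.15 for Vps29, the last with an adjusted p of 0.158, and 3 of 4 did after cyclic loess. The differences of Vps4a (-0.02) and Vps4b (0.04) had intervals from -0.17 to 0.12 and from -0.08 to 0.16.

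Among WT mice 2 of 67 members (2.99%) were called, Vps13a and Snx5, both higher in males. The background was 1.32% of all probe sets and 1.95% of those with a mean of 5 or more. At an unadjusted p under 0.05 there were 12 (17.9%), with 11 higher in males. The background there was 14.2% of all probe sets and 16.8% of those with a mean of 5 or more. After cyclic loess there were 10 members, with 8 higher. Vps13a ran from 7.33 to 7.93 in WT females (median 7.63) and from 7.88 to 8.20 in WT males (median 7.99), a difference of 0.38 (1.31-fold, 95% interval 0.21 to 0.56, adjusted p = 0.0218). Snx5 ran from 9.33 to 9.66 in WT females (median 9.52) and from 9.69 to 9.81 in WT males (median 9.81), a difference of 0.26 (0.13 to 0.40, adjusted p = 0.0443). Snx5, Vps72 and Snx14 did not overlap between WT females and males, 3 members where 1.65% of all probe sets did not. Vps72 differed by 0.27 ± 0.07 (SE, adjusted p = 0.0584), Snx14 by -0.26 ± 0.09 (adjusted p = 0.191), Chmp1a by -0.18 ± 0.09 and Snx30 by -0.17 ± 0.10 (-0.05 without the 4 liver-high arrays). Both calls were lost without the 4 liver-high arrays (Vps13a 0.32, adjusted p = 0.0889, and Snx5 0.25, adjusted p = 0.153). WT female 2, which had the highest liver-list mean, decided them as well, since without it Vps13a stood at 0.33 (adjusted p = 0.0583) and Snx5 at 0.23 (adjusted p = 0.117), and without WT male 6 Vps13a stood at 0.35 (adjusted p = 0.0605). The call of Snx5 was lost on leaving out any of 16 arrays in turn (WT females 1 to 4, WT males 2 to 6, Vps39+/- females 2, 5 and 6 and Vps39+/- males 1, 2, 3 and 5), with values from 0.23 to 0.28 and an adjusted p of at most 0.117.

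Among Vps39+/- mice 1 of 67 members was called, Snx12, against 0.766% of all probe sets and 1.15% of those with a mean of 5 or more. At an unadjusted p under 0.05 there were 10 (14.9%), 5 in each direction, against 11.1% and 13.5%. Without Vps39+/- female 3 there were 6. Snx12 ran from 7.06 to 7.62 in Vps39+/- females (median 7.49) and from 7.68 to 7.96 in Vps39+/- males (median 7.87), a difference of 0.42 (1.34-fold, 95% interval 0.22 to 0.61, adjusted p = 0.0332). Snx12 and Vps72 did not overlap between the sexes, 2 members where 1.76% of all probe sets did not. The call of Snx12 was lost on leaving out any of 8 arrays (Vps39+/- females 1, 2 and 4 and Vps39+/- males 1 and 3 to 6), with values from 0.34 to 0.42 and an adjusted p of at most 0.0803. It was also lost without the 4 liver-high arrays (0.47, adjusted p = 0.0696), with arrays shifted to the same median (0.42, adjusted p = 0.0548) and with the title-number block (0.40, adjusted p = 0.0616), as well as with only the 2 groups compared. Vps13c was lower in Vps39+/- males by 0.28 on the log2 scale (SE 0.08, adjusted p = 0.0878), and Vps53 (-0.23 ± 0.08) and Snx14 (-0.27 ± 0.09) were lower too without passing. Vps72 (0.20 ± 0.07) and Vps37a (0.25 ± 0.10) were higher without passing.

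The sex difference of a member could be set side by side in the 2 genotypes, which shared no mice. Vps35 stood at 0.18 (95% interval 0.03 to 0.33) in WT and -0.16 (-0.31 to -0.01) in Vps39+/- mice, the same contrast as its interaction above. Vps13a stood at 0.38 in WT and 0.09 (-0.08 to 0.27) in Vps39+/- mice, and Vps72 at 0.27 and 0.20. Of all members 53.7% had the same sign in both genotypes, where 56.7% of all probe sets did.

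**Figure D5:**
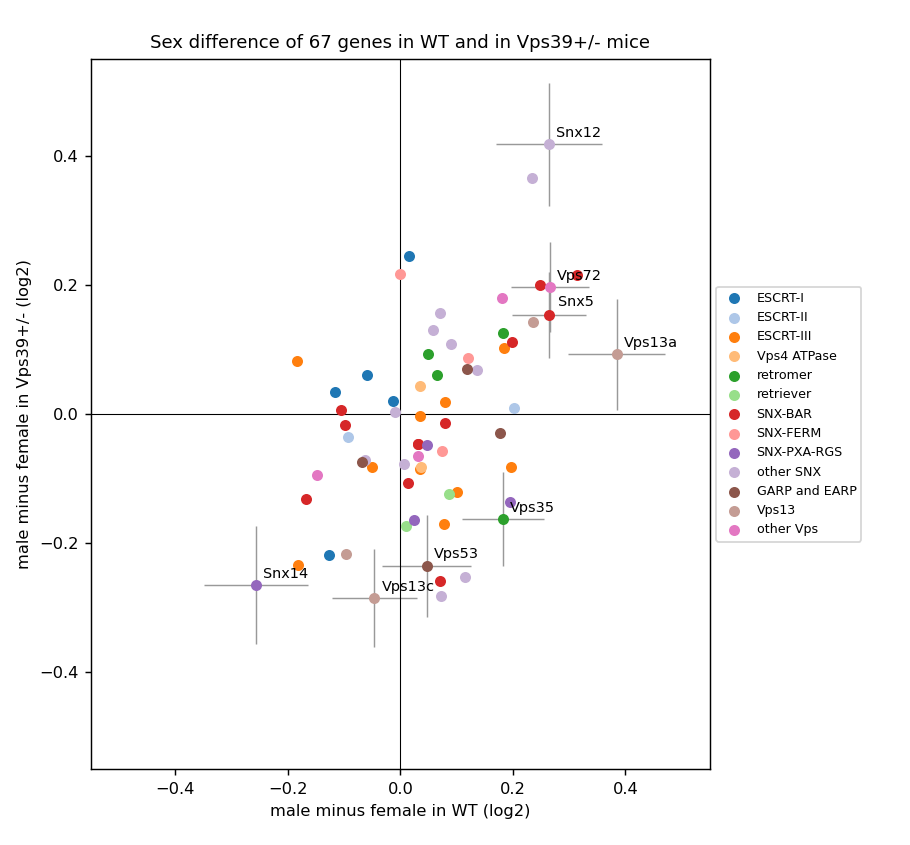
Difference between males and females on the log2 scale in WT mice (horizontal) and in Vps39+/- mice (vertical) for the 67 genes, coloured by role, with standard errors for the genes named beside them. Snx12, Snx5, Vps72 and Vps13a lie at the upper right and Snx14 at the lower left, and Vps35 is above 0 in WT and below 0 in Vps39+/- mice.

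The partners of these genes gave a single call. Of 55 listed and measured genes, 17 act with ESCRT, 21 with retromer and retriever (WASH, COMMD and CCC subunits, Rab7 and Tbc1d5), 9 are retromer cargo receptors and 8 belong to the class III PI3 kinase that makes the lipid bound by PX domains. None of the 55 passed for genotype, within either sex or for the interaction, and 2, 4, 2 and 6 of them had an unadjusted p under 0.05, against 7.34%, 8.32%, 7% and 7.79% of all probe sets. The smallest p for genotype belonged to Tbc1d5, a regulator of Rab7 that binds retromer (-0.17 ± 0.07, adjusted p = 0.603), and Commd1 (-0.16 ± 0.07, adjusted p = 0.622). For sex 1 of 55 passed, against 3.38% of all probe sets, and in WT mice 1 of 55, against 1.32%. Both calls were the Wnt carrier Wls, whose return from endosomes needs retromer and which was higher in males by 0.36 ± 0.07 (adjusted p = 0.00534) and in WT males by 0.42 ± 0.10 (adjusted p = 0.0384). The partner values come from the main fit, and no other settings are given for them.

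The slope of each member on the liver-list mean within groups was also fitted. Of 67 members 0 passed, against 3.13% of all probe sets, and 7 had an unadjusted p under 0.05, against 12.3%. All 7 slopes were negative. The count was 1 without WT female 2, 11 without Vps39+/- male 3 and 0 without the 4 liver-high arrays. Per log2 unit of the liver-list mean they included -0.04 for the ESCRT-II gene Vps36 (adjusted p = 0.130), -0.05 for Vps13d (adjusted p = 0.161) and -0.04 for Vps4a (adjusted p = 0.298), and the largest positive ones by p were 0.04 for Snx6, 0.04 for Snx30 and 0.05 for Snx7. Without the 4 liver-high arrays Vps4a stood at -0.01 and Snx6 and Snx30 at 0.001 each, and after cyclic loess Vps36 stood at -0.02. No member lay within 10 Mb of Vps39, the nearest being Snx5 at 23.9 Mb on the RefSeq GRCm38.p6 assembly.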

How the data were processed

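RNA of tibialis anterior muscle from 24 mice was measured on Clariom S mouse arrays. The authors made the deposited log2 values with Expression Console 1.4.1.46 by Robust Multi-array Analysis (RMA), which corrects background, makes the distributions of the arrays alike and summarises probes, so that a shift common to most genes cannot be seen. The genome build of the annotation is not stated in the sources used. Of 28846 probe sets, 6640 controls and 2634 without a symbol were left out, and 19572 with a single symbol were tested. Snx29 had several probe sets and was taken with the one of highest mean. Arrays have no read depth, and 6 arrays per group limit the precision.

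Groups came from the sample labels, and replicate numbers pair no mice. The titles also carry a running number of unstated meaning that goes group by group. Any effect tied to that order cannot be told apart from genotype or sex. Genotype was fitted over all mice, and the other comparisons from 4 group means sharing 1 estimate of spread, with limma 3.58.1 in R 4.3.3, two-sided, with Benjamini-Hochberg adjustment over 19572 probe sets and a threshold of 0.05. The liver-list slope was fitted within groups. The script was tested on simulated data. The members, gene lists, motifs and rules were chosen with earlier results of these data known. Members were named if called, and otherwise as the 3 of smallest p in each direction with a mean of 5 or more, in each comparison, besides core retromer and Vps4. Intervals are 95% and belong to the estimated difference, not to single mice. The spread between mice enters them through the standard error. Alternatives were other scalings, filters, priors and weights, the liver-list mean as covariate, subsets of arrays, sex as covariate, the methods' t-test and a title number of unstated meaning as a block (random block with statmod 1.5.0).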

Additional observations from a re-analysis of the deposited data

Results flagged for a closer look

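Among 92 groups of 6 arrays (23 named genes in 4 groups), 4 held an array far from its group, where chance gives about 1 in 20. Snx6 was 6.63 in Vps39+/- male 5 and 7.00 to 7.04 in the other 5. Vps13d was 7.26 in Vps39+/- female 1 and 7.54 to 7.67 in the others. Vps26a was 7.69 in WT male 3 and 7.33 to 7.4 in the others. Vps37d was 6.16 in WT male 1 and 5.81 to 5.87 in the others.

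For 2 genes the Vps39+/- females all lay above the WT female mean and the Vps39+/- males all below the WT male mean. The ranges of the genotypes still overlapped for Vps35 in females and for Vps13a in both sexes. All 6 Vps39+/- females lay above the WT female mean of Vps35 (mean difference 0.10) and all 6 Vps39+/- males below the WT male mean (-0.25), a gap of 0.34. Read as a sex difference, all WT males lay above the WT female mean (0.18) and all Vps39+/- males below the Vps39+/- female mean (-0.16), again a gap of 0.34. Vps13a showed the genotype pattern with 0.12 in females and -0.18 in males, a gap of 0.29, which was 0.16 without the 4 liver-high arrays and 0.53 with a fixed block for the title number. The interaction itself did not pass for either gene (limma adjusted p = 0.609 and 0.632).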

How the results depend on the processing

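The counts of members called for genotype, within females, within males and for the interaction were 0 in every setting run, leaving out each array in turn included. At an unadjusted p under 0.05 leaving out 1 array gave 10 to 15 members for genotype, 3 to 5 in females, 9 to 13 in males and 3 to 8 for the interaction. The methods' t-test gave 14 members for genotype, 7 in females and 12 in males at its unadjusted threshold and 0 after Benjamini-Hochberg adjustment. The 5 members called for sex became 3 without the 4 liver-high arrays and 4 to 6 when 1 array was left out, and 7 among probe sets of mean 5 or more, with Chmp4b and Vps13c added. The 2 called for sex in WT became 3, with Vps72, under that filter or a robust prior with an intensity trend, 1 after cyclic loess, with array weights or with a fixed block for the title number, 0 with a covariate for the liver-list mean, without the 4 arrays or with only the 2 groups compared, and 0 to 2 when 1 array was left out. The 1 called for sex in Vps39+/- mice became 0 with arrays shifted to the same median, without the 4 arrays, with a fixed block for the title number or with only the 2 groups compared, 2 among probe sets of mean 5 or more, where fewer genes were tested, and 0 to 1 when 1 array was left out. The 0 called for the liver-list slope became 1, Vps36, with arrays shifted to the same median. Apart from settings with fewer arrays or genes, the cause was not tested. The WT and Vps39+/- females shared title number 1 and no other, and so did the WT females and WT males. The fixed block can therefore hardly be told apart from genotype in females, or from sex in WT mice. Its values for these comparisons decide little. Over the named members and all settings, 0 of 581 values and, with 1 array left out, 0 of 1176 changed sign, while 17 and 28 of them lost a call and 5 and 0 gained one. No paired analysis was possible because the replicate numbers follow accession order and pair no mice. Probe sets near background were few here, Snx22 being the only member with a mean under 5.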
